A study of Mus musculus with 7 samples.

Results

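The genes Dnm1l, Pkm, Ogdhl and Mmadhc serve mitochondrial fission and energy metabolism, and 5 alternative splicing events were listed for them, of 278 events under 228 gene names in the authors' deposited table. Every row carrying 1 of these 4 gene names was taken, which gave 2 rows for Dnm1l and 1 row each for Pkm, Ogdhl and Mmadhc. The genes were chosen by function from a table that the authors had already selected on its DRIMSeq p-values, with the splicing differences known. The differences between groups are therefore given as a description and are no independent evidence that these genes responded. The highest DRIMSeq corrected p in that table is 0.0979, and the 5 rows span 0.00176 to 0.0524.

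RNA-seq had been made from epithelium of the incisor cervical loop, the proliferative end of the continuously growing mouse incisor. All 7 libraries came from animals aged 8 to 10 weeks with the genotype K14CreER;Srsf1fl/fl, which carry a tamoxifen-dependent Cre recombinase under a keratin 14 promoter and loxP-flanked Srsf1. The 3 control libraries (replicates 1, 2 and 7) had received no tamoxifen (TAM), and the 4 mutant libraries (replicates 3, 4, 5 and 9) had been induced with it. Deletion is limited to cells in which the keratin 14 promoter was active when tamoxifen was given, and to the descendants of those cells. An effect of tamoxifen alone cannot be told apart from that of losing SRSF1, a splicing factor of the SR protein family. The labels do not say whether each library was a separate animal, so the spread between libraries may be partly technical. The measured quantity was percent spliced in (PSI), the share of reads at an event, in percent, that come from the form called inclusion. Read numbers per event and per library were not given, so the depth behind each PSI is unknown.

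The targeted gene has 1 listed event, an alternative last exon of Srsf1, with a PSI of 5.83 to 10.07% in the controls and 44.74 to 85.52% in the mutants. Which last exon is called inclusion is a convention. This PSI measures neither the extent of deletion nor the level of SRSF1. The table holds no expression values, and none of 13 marker genes of dental epithelium, dental mesenchyme, blood and endothelium has a listed event, so the tissue label could not be checked against markers. In bulk tissue, a change in the mix of cells that splice differently and a change within each cell cannot be told apart.

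Mitochondria divide when the dynamin-related GTPase DRP1, encoded by Dnm1l, is recruited to their outer membrane, assembles into a ring and constricts it. Its variable domain holds alternatively spliced exons, so that cells make several DRP1 isoforms. Pyruvate kinase, encoded by Pkm, catalyses the last step of glycolysis and exists as M1 or M2 according to which of a pair of mutually exclusive exons is used. M1 is constitutively active, whereas M2 is allosterically regulated and predominates in many proliferating tissues. Ogdhl encodes a relative of the E1 subunit of the 2-oxoglutarate dehydrogenase complex, an enzyme of the tricarboxylic acid cycle. Mmadhc encodes a protein that directs vitamin B12 (cobalamin) to methylmalonyl-CoA mutase in mitochondria and to methionine synthase in the cytosol.

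The exons that carry these events were read from GENCODE M21 transcripts on GRCm38, 5′ to 3′ on the strand of the gene. The Dnm1l pair is shown because both exons insert whole codons next to each other in the same protein. The first exon in transcript order, chr16:16318764-16318841 on the minus strand, is 78 nucleotides (nt) long and gives 26 codons. The second, chr16:16318445-16318477, is 33 nt long and gives 11 codons. Both begin at the first base of a codon, neither contains a stop codon in frame, and 286 nt of intron separate them.
Dnm1l 78-nt exon: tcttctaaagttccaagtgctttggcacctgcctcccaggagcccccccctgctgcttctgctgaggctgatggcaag
Dnm1l 33-nt exon: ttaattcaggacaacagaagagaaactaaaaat

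The Pkm exons are shown because the event is a choice between them. The M1 exon lies at chr9:59675029-59675195 and the M2 exon at chr9:59675568-59675734, both on the plus strand, with 372 nt of intron between them. Each is 167 nt long, which is not a multiple of 3, so the use of exactly 1 of them keeps the downstream reading frame. Capitals mark the bases at which the exons differ when laid side by side without gaps, 64 of 167 positions, which leaves 61.7% identity. Of these differences, 13 fall at the first codon position, 16 at the second and 35 at the third, and the last 10 bases are the same.
Pkm M1 exon: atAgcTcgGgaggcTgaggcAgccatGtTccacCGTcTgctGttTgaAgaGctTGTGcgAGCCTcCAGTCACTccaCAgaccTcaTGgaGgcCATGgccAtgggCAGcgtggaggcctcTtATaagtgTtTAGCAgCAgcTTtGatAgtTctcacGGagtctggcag
Pkm M2 exon: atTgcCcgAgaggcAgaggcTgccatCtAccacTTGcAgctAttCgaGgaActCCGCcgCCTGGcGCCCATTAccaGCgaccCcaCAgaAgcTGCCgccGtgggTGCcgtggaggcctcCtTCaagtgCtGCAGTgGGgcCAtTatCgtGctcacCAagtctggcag

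The Mmadhc exon at chr2:50280573-50280658 on the minus strand is shown because its 86 nt, not a multiple of 3, lie between the last 2 coding exons of transcript Mmadhc-201. In M21 it occurs only in transcript Mmadhc-206, where it is not annotated as coding over its whole length. Read on in the frame of Mmadhc-201, the exon adds 15 codons and then a stop codon, marked in capitals, at bases 46 to 48, which leaves 38 nt to the end of the exon. The 64 codons that Mmadhc-201, with 296 codons in all, holds after this point would then not be read.
Mmadhc 86-nt exon: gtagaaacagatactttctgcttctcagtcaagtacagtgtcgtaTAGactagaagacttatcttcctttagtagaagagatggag

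The Ogdhl exon, chr14:32323879-32323947 on the plus strand, is 69 nt long and lies wholly in the 5′ untranslated region, as exon 2 of 24 in transcript Ogdhl-201. The annotated start codon begins 1 base into the next exon. No ATG occurs in the 69 nt or across their joins to the neighbouring exons of Ogdhl-201. In M21 the exon occurs in the transcripts Ogdhl-201 and Ogdhl-203. The map of exons and junctions shows each of the 4 genes on its own scale.

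**Figure D1:**
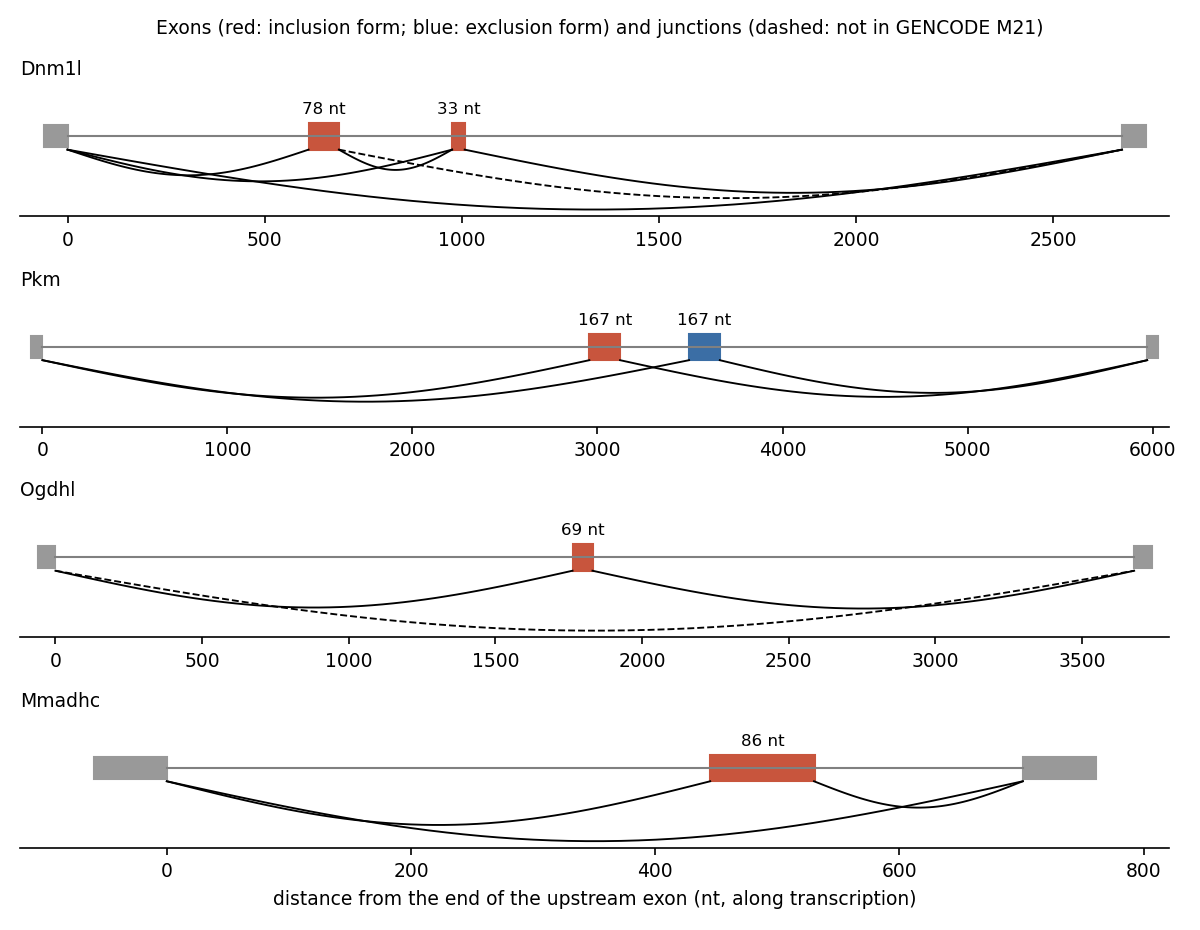
Exons and splice junctions of the 5 events, with distance in nt from the end of the upstream exon along transcription. Red blocks are exons of the inclusion form, the blue block is the exon of the exclusion form (Pkm M2), grey blocks mark flanking exons without their true length, and dashed arcs are the 2 junctions absent from GENCODE M21, 1 in Dnm1l and 1 in Ogdhl.

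Both variable exons of Dnm1l were used less in the mutants. PSI of the 78-nt exon was 42.35%, 40.58% and 25.84% in control libraries 1, 2 and 7, and 19.64%, 16.18%, 20.51% and 22.06% in mutant libraries 3, 4, 5 and 9. Every mutant value lay below every control value, with 3.78 percentage points between the nearest pair, control 7 and mutant 9. The mean fell from 36.3% ± 9.06 (SD, n = 3) to 19.6% ± 2.49 (SD, n = 4), a difference of −16.7 points (limma SE 3.98). Mutant libraries were close together for this exon, whereas control 7 stood well below the other controls.

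The 33-nt exon moved the same way. Its PSI was 68.97%, 55.56% and 46.99% in controls 1, 2 and 7, against 40.00%, 25.37%, 33.33% and 40.62% in mutants 3, 4, 5 and 9. The groups were again separate, with 6.37 points between control 7 and mutant 9. The mean fell from 57.2% ± 11.1 (SD, n = 3) to 34.8% ± 7.12 (SD, n = 4), a difference of −22.3 points (limma SE 5.62). Skipping of this exon thus went from 42.8% to 65.2%.

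The 33-nt exon had the higher PSI of the pair in 7 of 7 libraries. It exceeded the 78-nt exon by 20.9 ± 5.82 points in the controls (SD, n = 3; 14.98 to 26.62) and by 15.2 ± 5.15 points in the mutants (SD, n = 4; 9.19 to 20.36). These ranges overlap. The events are not separate measurements, because 4 of the 6 junctions counted for Dnm1l enter both, among them the junction that skips both exons (chr16:16316779-16319451). The junction that joins the 78-nt exon directly to the downstream exon (chr16:16316779-16318763) is absent from M21. Used together, the exons would add 111 nt, or 37 codons.

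**Figure D2:**
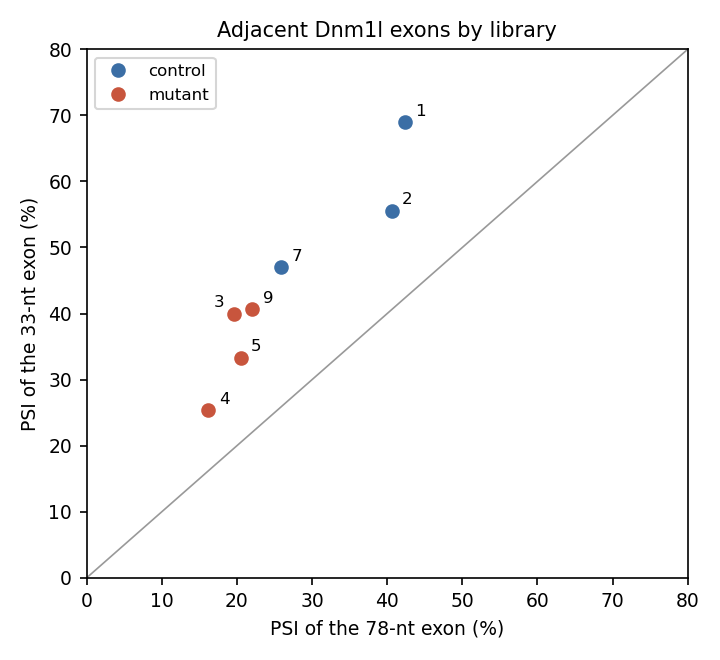
PSI (%) of the 33-nt Dnm1l exon against that of the adjacent 78-nt exon, 1 point per library, numbered by replicate, with controls in blue and mutants in red. All 7 points lie above the grey line of equal PSI, and the 4 mutants lie below and to the left of the 3 controls.

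Reads at the Pkm choice came almost only from the M2 exon in both groups, and the small M1 share was lower in the mutants. PSI, here the share of the M1 exon, was 6.60%, 5.49% and 7.86% in controls 1, 2 and 7. It was 2.54%, 1.90%, 3.05% and 3.13% in mutants 3, 4, 5 and 9. No mutant reached the lowest control, which was 2.36 points above the highest mutant. The mean fell from 6.65% ± 1.19 (SD, n = 3) to 2.66% ± 0.567 (SD, n = 4), a difference of −3.995 points (limma SE 1.66) and a ratio of mutant to control of 0.399. The share of the M2 exon correspondingly went from 93.35% to 97.3%. All 4 junctions of this choice are annotated in M21.

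In percentage points, the largest change of the 5 was in Ogdhl. Its exon had a PSI of 82.69%, 71.43% and 57.38% in controls 1, 2 and 7, and of 36.84%, 35.29%, 31.11% and 47.83% in mutants 3, 4, 5 and 9. Control 7 and mutant 9 came nearest to each other and were still 9.55 points apart. The mean fell from 70.5% ± 12.7 (SD, n = 3) to 37.8% ± 7.13 (SD, n = 4), a difference of −32.7 points (limma SE 6.10). The form without the exon went from 29.5% to 62.2% of the event. The controls were widely spread: only 3 of the 278 events had a larger SD between controls, and the median control SD over all events was 2.21 points. The skipping junction, chr14:32322117-32325793, is absent from M21.

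Mmadhc was the single gene of the 4 in which inclusion rose, from a low level. PSI of its 86-nt exon was 2.15%, 2.82% and 0.93% in controls 1, 2 and 7. It was 8.68%, 5.75%, 6.02% and 7.04% in mutants 3, 4, 5 and 9, all above the highest control by at least 2.93 points. The mean rose from 1.97% ± 0.958 (SD, n = 3) to 6.87% ± 1.33 (SD, n = 4), a difference of 4.91 points (limma SE 1.73) and a ratio of 3.49. Skipping, which leaves the coding frame of Mmadhc-201 intact, was still the form in 93.1% of the event in the mutants. All 3 junctions are annotated.

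**Figure D3:**
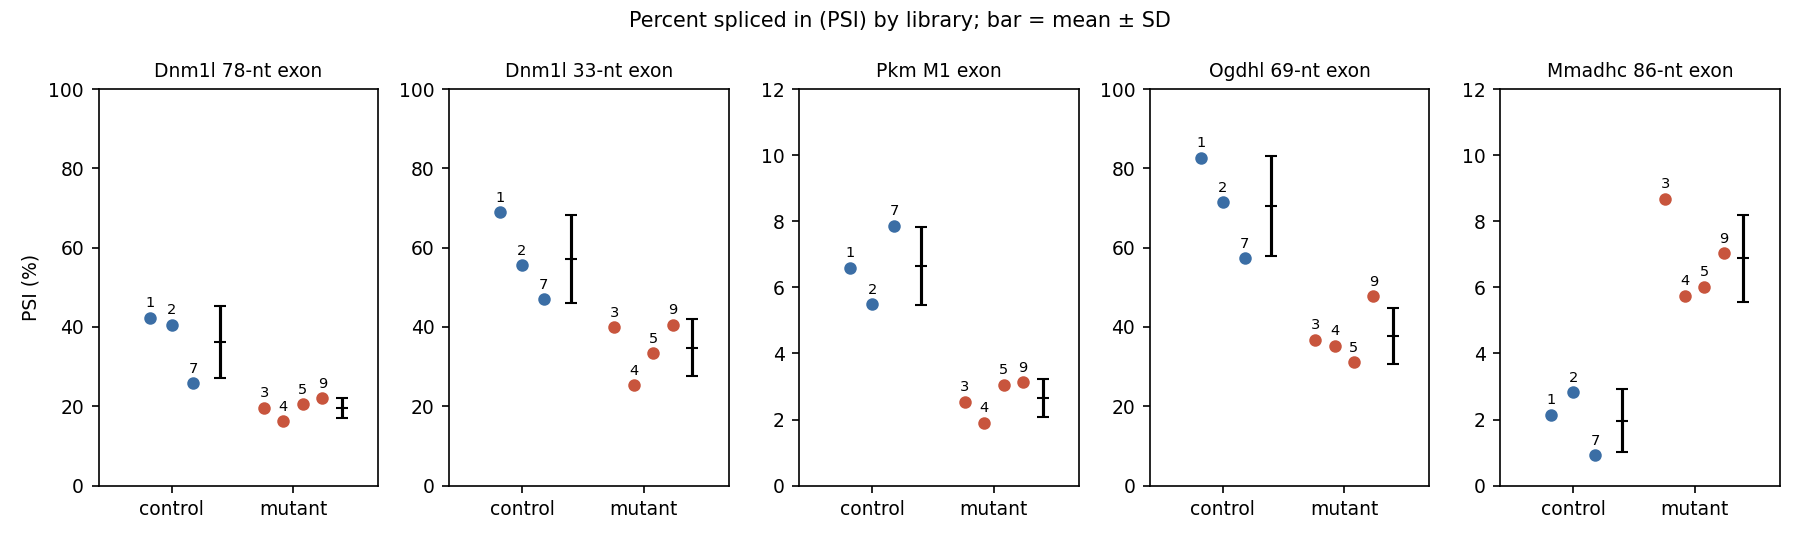
PSI (%) in each library for the 5 events, with replicate numbers beside the points, controls in blue, mutants in red, and the mean ± SD as a black bar. The vertical axis ends at 100% for Dnm1l and Ogdhl and at 12% for Pkm and Mmadhc, and in each panel the 4 mutants are separate from the 3 controls.

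Of the 5 events, 4 had all mutants below all controls, as did 79.1% of the events in the table, and 1 had all mutants above all controls, as did 16.5%. All 5 passed limma with Benjamini-Hochberg adjustment over the 278 events at 0.05, as did 95.7% of the table. These shares describe a table selected for such differences, and nothing about the members is read from them. The calls for Pkm and Mmadhc were not stable. Without any 1 library, their differences ran from −4.58 to −3.39 and from 4.30 to 5.33 points respectively. These fits were made in points, and the limma SE borrows variance from all events of the table. The part of that borrowing in the lost calls was not tested. Pkm missed the threshold in each of the 7 fits that left out 1 library, and Mmadhc missed it without control 1, 2 or 7 or without mutant 3. The number of members past the threshold was then 3 without any 1 of these 4 libraries, against 5 with all libraries. In the same 4 fits, 239 to 259 of the 278 events of the table passed, against 266 with all libraries. In the authors' deposited table, 4 of the 5 events have a DRIMSeq corrected p below 0.05, as do 214 of all 278 events. These 4 have 0.00176 for Ogdhl, 0.00295 for Pkm, 0.0236 for Mmadhc and 0.0309 for the 33-nt exon of Dnm1l. The 78-nt exon of Dnm1l has 0.0524. The JuncBASE corrected p-values deposited for the same rows run from 0.2001 (Mmadhc) to 0.476, none of them below 0.05, although 3 of the 5 raw p-values are. The JuncBASE counts were not made over the whole table, so nothing about the members is read from them.

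The rank of a change depended on the scale. By absolute difference of means in points, Ogdhl was 5th of 278 events and the Dnm1l exons 44th (33 nt) and 100th (78 nt), whereas Mmadhc and Pkm were 264th and 269th. By difference in log-odds (natural log, 0.5 points added to either side), Ogdhl was 120th with −1.42 and Mmadhc 149th with 1.19. The 33-nt exon of Dnm1l (−0.93) was then 209th, Pkm (−0.86) 225th and the 78-nt exon (−0.82) 235th. On this scale the Pkm change, near the bottom of the range in points, lay between those of the Dnm1l exons. The median difference was −16.7 points over the 5 events and −11.3 points over the whole table.

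**Figure D4:**
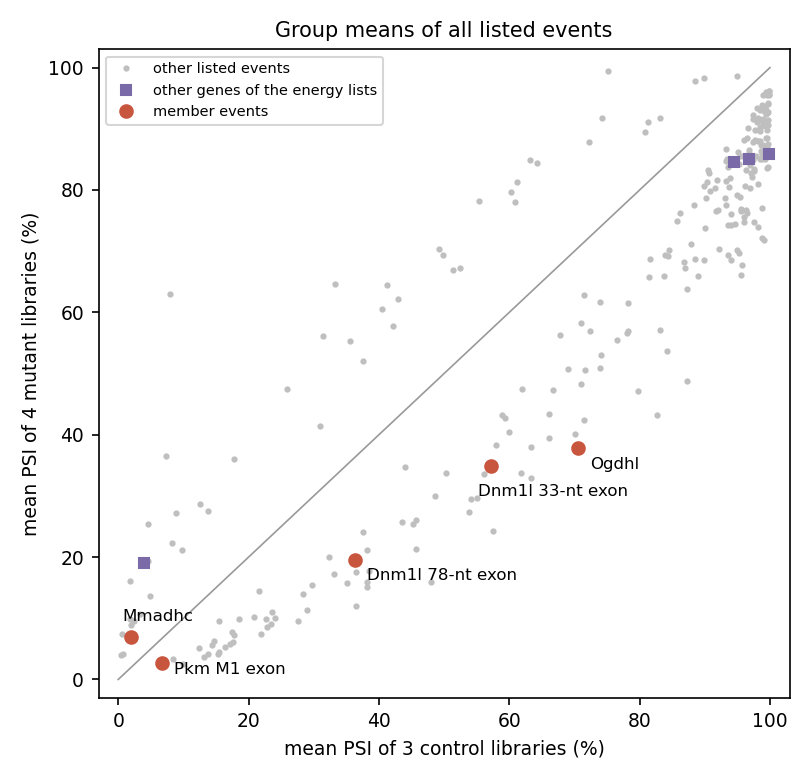
Mean PSI (%) of the 4 mutant libraries against that of the 3 control libraries for all 278 events, with the 5 member events in red, 4 events of other energy-metabolism genes as purple squares, and a grey line of equal PSI. Dnm1l, Ogdhl and Pkm lie below the line and Mmadhc above it, with Pkm and Mmadhc in the corner of low PSI.

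The order of libraries within a group was alike in some of these events and differed in others. Controls ran 1, 2, 7 from high to low in both Dnm1l exons and in Ogdhl, an order found in 44 of the 278 events (15.8%), but not in Pkm or Mmadhc, where control 7 was highest and lowest respectively. Mutant 4 was the lowest mutant in both Dnm1l exons, Pkm and Mmadhc, and mutant 5 in Ogdhl. Over the table, mutant 4 was lowest in 133 events (47.8%). The Dnm1l events have 4 of 6 junctions in common, so their like order is not an independent repeat. The part of library quality or depth in these orders was not tested.

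By Pearson's r over the 7 PSI values, the events of other genes most like each member were as follows. For Ogdhl they were in Prrc2c, Rer1 and Picalm (r from 0.982 to 0.989), and for the 33-nt exon of Dnm1l in Picalm, Ogdhl and Rer1 (0.944 to 0.960). The Rer1 events differ, with a control mean of 14.39% in the match to Ogdhl and 22.76% in the match to Dnm1l. For the 78-nt exon the nearest was in Fubp1 (0.979). For Pkm they were in Aasdhppt, Hnrnpc and Bclaf1 (0.974 to 0.993), and for Mmadhc in Nisch, Cdc123 and Fip1l1 (0.901 to 0.971). The groups are separate in each member event, so that r reflects the group difference as well as the order within groups, and groups of 3 and 4 libraries are too small for a value within each.

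The 6 exons, with Pkm M2 included, share few properties that were not part of the choice. Lengths of 33, 69 and 78 nt are multiples of 3, whereas 86 and 167 nt are not. Of the 173 distinct cassette exons in the table, 102 (59.0%) have a length divisible by 3, and the median length is 116 nt. With 33 nt, the shorter Dnm1l exon is among the 5 shortest. Its GC content of 27.3% and that of the Mmadhc exon (38.4%) are below the median of 50% over the cassette exons, while the 78-nt Dnm1l exon (59.0%), the Ogdhl exon (53.6%) and the Pkm M1 (56.3%) and M2 (62.9%) exons are above it. GGAGA and GAAGAA, letters taken from known SRSF1 binding motifs and searched on the transcript strand, occur in none of the 6. At least 1 of them occurs in 33.5% of the 173 cassette exons and in 24.2% of the 62 that are no longer than 86 nt. This says only that these letters are not in these exons.

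Other genes of mitochondrial dynamics and energy metabolism were looked up in 7 lists with 256 genes, the 4 members included. Beside the members, 3 of the other 252 genes had listed events, 4 in all, of which 3 fell and 1 rose by limma at the same threshold. Over the table, 95.7% of events passed limma in either direction, and 228 of 278 had a lower mean in the mutants. Nothing about these genes is therefore read from the counts. March5, a ubiquitin ligase of the mitochondrial outer membrane that acts on DRP1 and its receptors, had an alternative first exon that fell from 94.5% ± 1.99 (SD, n = 3) to 84.6% ± 3.94 (SD, n = 4). A first exon of Ndufs3, a core subunit of complex I, fell from 99.8% ± 0.312 to 85.8% ± 5.48. Atpif1, which encodes the inhibitor of the mitochondrial ATP synthase, had an alternative 5′ splice site that rose from 3.96% ± 1.91 to 19.0% ± 6.75 and an alternative last exon that fell from 96.8% ± 2.01 to 85.0% ± 5.46, with 1 junction counted in both. For first and last exons, which form is called inclusion is a convention. Neither the 26 genes of fatty acid oxidation nor the 33 of energy sensing and mitochondrial biogenesis had a listed event. A gene without a listed event cannot be called unchanged, because the events that did not enter the table were not analysed here.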

How the data were processed

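The authors deposited 1 table of splicing events with PSI as a percent for each library, per the file headers. JuncBASE quantified the events, per the series text, and Bowtie, TopHat, SAMtools, DESeq and mm9 are named in the submitters' processing notes. The deposited difference of medians is a signed score in percentage points. The deposited p-values come from JuncBASE, by a test that the sources used here do not name, and from DRIMSeq, per the file headers. Recomputed and deposited medians differed by at most 0.005 points, and 0 library columns were left unused.

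Of 863 distinct junctions, 650 (75.3%) are introns of GENCODE M21, and 14 of the 16 in member events, against 0 after a shift of 1000 bases, so coordinates were read as GRCm38. PSI was fitted over all 278 events with limma 3.58.1 (R 4.3.3), mutant minus control, and adjusted by Benjamini-Hochberg at 0.05. The limma step was run on simulated data with independent normal noise and without the bounds of PSI. Those simulations therefore do not represent changes near the lower bound, such as those of Pkm and Mmadhc. Summaries used Python 3.11.15, pandas 2.3.3 and numpy 2.4.6. Every event of the 4 genes, and of the genes in the 7 lists, was named. Members and lists were chosen with earlier results of these data known. Alternatives were medians, a logit scale, a filter on PSI, cassette exons alone and leaving out each library.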

Additional observations from a re-analysis of the deposited data

How the results depend on the processing

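With medians in place of means, on the logit scale and without any 1 library, the difference of each of the 5 events kept its direction and moved by less than 1 SD, pooled within groups. Without any 1 library it ran from −21.9 to −13.6 points for the 78-nt exon of Dnm1l, −27.4 to −16.4 for the 33-nt exon, −4.58 to −3.39 for Pkm, −39.3 to −26.6 for Ogdhl and 4.30 to 5.33 for Mmadhc. The groups were separate in each of the 5 events, so none of these settings could reverse a direction. Leaving out 1 library of 3 or 4 also cannot move a difference by 1 pooled SD. Kept direction and small shifts without 1 library are therefore no test of stability. The number of these events past limma's threshold, 5 with all libraries, was 3 to 4 without 1 library and 3 with a mean PSI from 5 to 95%, a filter that leaves only 3 of them, and 5 on the logit scale; this count was added after the data were seen. Of the table, 266 of 278 events passed with all libraries, 239 to 266 of 278 without 1 library, 251 of the 251 left by the filter and 275 of 278 on the logit scale. Events of the table with all mutants below all controls numbered 220, and 139 among cassette exons alone, where fewer events were counted. Depth per event is unknown.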
